A study of Mus musculus with 4 samples.

Results

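Lysozymes and the antimicrobial proteins of neutrophil granules were followed in alveolar macrophages of the mouse, which take up microbes and particles in the airways' terminal sacs. The set was chosen by gene symbol and holds 9 genes, Lyz1, Lyz2, Camp, S100a8, S100a9, Lcn2, Slpi, Ngp and Ltf. Of these, 8 have tags in the data, with 23 of 30627 listed tags, and 12 of the 23 have a count. Counts were obtained by serial analysis of gene expression (SAGE), which reads 1 short tag beside a CATG site, the cut site of the enzyme NlaIII, for each transcript. The first group of 2 libraries came from wild-type BALB/c mice that had received cells of BNL, a mouse hepatocellular carcinoma line, by vein 21 days earlier and carried lung metastases. The second group of 2 libraries came from untreated wild-type BALB/c mice without metastases, which are not described as sham-injected. Whether both libraries of a group were made from different animals or pools is not stated, so the p-values reflect the spread among these samples alone, and that spread may be technical.

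Lysozyme cuts the peptidoglycan of bacterial cell walls. Mice have a pair of neighbouring lysozyme genes: Lyz2 encodes the lysozyme of macrophages, neutrophils and alveolar type II cells, and Lyz1 that of the Paneth cells of the gut. Neutrophils load their granules with antimicrobial proteins while they mature in the bone marrow. Camp (cathelicidin), Ltf (the iron-binding lactoferrin), Lcn2 (lipocalin-2, which captures bacterial siderophores) and Ngp (neutrophilic granule protein) belong to these granules. S100a8 and S100a9 form calprotectin, a metal-binding complex of neutrophil cytosol that monocytes also make. Slpi (secretory leukocyte protease inhibitor) protects tissue from neutrophil elastase and is made by airway epithelium and macrophages as well.

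The tags decide which of these genes the data can tell apart, so they are shown first, with the anchoring CATG in capitals. Sites were found in GENCODE M21 transcripts (GRCm38), and the sequences are those of the counted tags at the site nearest the 3' end and, for Lyz2, of its most counted private tag.
Tag named Lyz1: CATGtgtcagtctgtttaacccttg
Tag named Lyz2, at its start codon: CATGaagactctcctgactctggga
Camp: CATGcagttccagagggacgtcccc
Slpi: CATGgctcccggctccctgtatccc
S100a9: CATGtgacagctgcccaaccaagtc
S100a8: CATGccctctacaagaatgacttca
The tag deposited as Lyz1 is carried by both lysozyme genes. It lies in the 3' UTR of exon 4 of 4 in each, on the minus strand, at chr10:117287981-117288005 in Lyz1 and chr10:117277520-117277544 in Lyz2. In Lyz2 it is at the last of 5 NlaIII sites, the one that SAGE is designed to read, whereas in Lyz1 it is at the second of 7 sites from the 3' end. The tag at the last site of Lyz1 is not listed in the tables used here, nor is any other tag that only Lyz1 carries. Counts under the name Lyz1 therefore cannot be assigned to Lyz1, and are called the shared lysozyme tag from here on.

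The 3 tags deposited as Lyz2 match Lyz2 alone, and each differs from the corresponding Lyz1 site by 1 or 2 bases. Capitals mark the bases that differ between the genes in the following pairs.
Lyz2 start codon site: catgaagActctcctgactctggga
Lyz1 start codon site: catgaagGctctcctgactctggga
Lyz2 exon 4 site: catggcgaGcacaCtgtcaaaaccg
Lyz1 exon 4 site: catggcgaAcacaAtgtcaaaaccg
Counted from 1 at the first base after CATG, with the Lyz2 base first, the substitution is A4G at the start codon and G5A and C10A in exon 4. The Lyz2 start codon tag spans chr10:117282219-117282243 in exon 1 of 4, on the minus strand, and the exon 4 tag spans chr10:117278158-117278182 in the coding sequence.

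The other genes differ in how well SAGE can see them. The Ngp transcript, 1222 bases long, holds 0 NlaIII sites, so this method gives Ngp no tag. Camp (chr9:109849411-109849435, minus strand, exon 1 of 4, across the start codon), S100a8 (chr3:90669620-90669644, plus strand, coding sequence of exon 2 of 3), S100a9 (chr3:90692708-90692732, minus strand, 3' UTR of exon 3 of 3) and Slpi (chr2:164354197-164354221, minus strand, 3' UTR of exon 4 of 4) are counted mainly or wholly at the last site of their main coding transcript. The last site of the main Lcn2 transcript lies 13 bases from the transcript end and leaves only 9 bases after CATG, too few for a whole tag of 21. Lcn2 counts come from the next site upstream (chr2:32385740-32385764, minus strand, coding sequence of exon 4 of 6). Ltf was counted at 1 of its 7 listed tags, at the sixth of 13 sites from the 3' end of the full-length Ltf transcript (chr9:111038928-111038952, plus strand, coding sequence of exon 15 of 17), which is the last site of 3 shorter Ltf transcripts. The tag at the last site of that full-length transcript is listed at 0 in all 4 libraries.

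**Figure D1:**
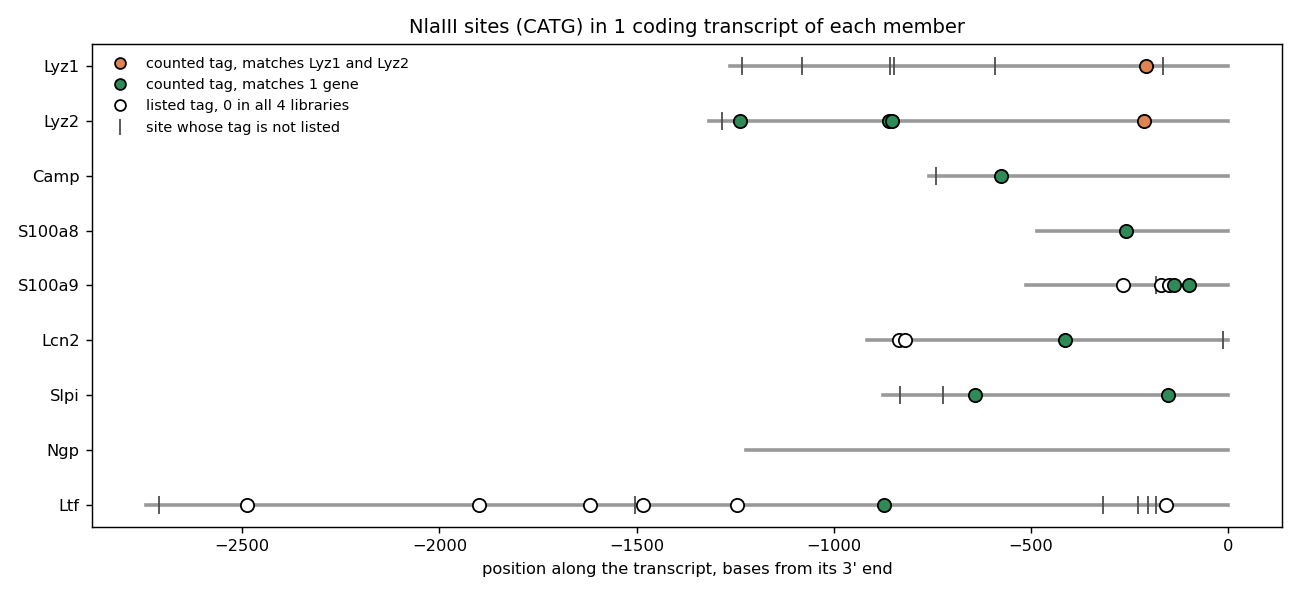
NlaIII sites along 1 coding transcript of each gene, drawn by distance in bases from the 3' end. Orange marks the tag that Lyz1 and Lyz2 share, green the counted tags of 1 gene, white the listed tags at 0 in all 4 libraries, and ticks the sites whose tag is not listed; Ngp has 0 sites.

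Sequencing gave 1783814 and 1630776 tag counts for the day 21 libraries, against 1962569 and 2198563 for the untreated ones. The smallest count above 0 is 2, so a 0 can stand for a tag read once. Of 14 alveolar macrophage markers, 13 had counts (Chil3, Ear2, Cd68, Siglecf and Krt79 among them), Fabp4 is listed at 0 in all 4 libraries, and Marco had 2 counts in 1 untreated library. The 3 listed T and B cell markers, of 8, had 0 counts, and Prg2, an eosinophil granule protein, had 2 and 6 counts on day 21 against 2 and 0 in untreated mice. Because bulk RNA was counted, fewer cells of a type and less RNA per cell cannot be told apart. Levels are given as CPM, each count rescaled to a common library size, and are relative to library sizes scaled by TMM, a normalisation that trims genes with extreme changes. A SAGE count is 1 per transcript and needs no correction for length.

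Lysozyme was the abundant product of the set. The shared lysozyme tag had 16199 and 11327 counts on day 21, against 10992 and 26436 counts in untreated mice, which is 9245 and 8071 CPM against 5395 and 10809 CPM. Together with the Lyz2 tags it made up 0.997% (exact Clopper-Pearson 95% interval 0.982% to 1.01%) and 0.836% (0.822% to 0.850%) of all counts on day 21, and 0.613% (0.603% to 0.624%) and 1.37% (1.36% to 1.39%) in untreated mice. These intervals cover counting error only, since PCR copies were not told apart. The untreated libraries were the lowest and the highest of the 4, and the groups overlapped.

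The 3 private tags of Lyz2, the macrophage lysozyme, summed to 1581 and 2306 counts on day 21, against 1045 and 3708 counts in untreated mice. This gave 902.3 and 1643 CPM against 512.8 and 1516 CPM, with the lowest library again untreated replicate 1, as for 32.1% of the 2993 tested genes. In each group replicate 2 was above replicate 1, by 1.82-fold on day 21 (counting interval 1.71 to 1.94) and 2.96-fold in untreated mice (2.76 to 3.17), an order that 34.6% of these genes had in both groups. The log2 change from untreated to day 21 was 0.33 ± 0.59 (SE) for Lyz2 and 0.10 ± 0.49 for the shared tag (edgeR quasi-likelihood test, adjusted p = 0.999 for each). With the counts of both names taken as 1 gene, lysozyme was at 10145 and 9714 CPM on day 21, against 5904 and 12336 CPM in untreated mice, a log2 change of 0.12 ± 0.49 (adjusted p = 0.998). Lysozyme thus differed by less between the groups than between the untreated libraries. The direction also depended on single libraries: leaving out untreated replicate 1 gave -0.31 for the shared tag and -0.25 for Lyz2, and leaving out untreated replicate 2 gave 0.71 for the shared tag and 1.34 for Lyz2. Without day 21 metastasis replicate 2 that of Lyz2 was -0.14, and without day 21 metastasis replicate 1 it was 0.76. With library totals in place of TMM the shared tag had a log2 change of -0.14.

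The lysozyme counts were spread over the sites of the transcript in proportions that differed between libraries. Tags private to Lyz2, all upstream of the last site, held 8.89% (95% interval 8.48% to 9.32%) and 16.9% (16.3% to 17.6%) of the lysozyme counts on day 21, and 8.68% (8.18% to 9.20%) and 12.3% (11.9% to 12.7%) in untreated mice. Over all genes, tags not found at the last site of a transcript of the gene they are named for held 15.4% and 22.1% of the counts on day 21. In untreated mice they held 21.5% and 27.3%. Tags without a match fall in this class, as does the shared lysozyme tag by its name Lyz1, so it is not a pure upstream share. In each group the library with the larger share of this class was also the one with the larger Lyz2-only share. Most private counts were at the start codon, the most 5' of the counted sites, which held 76.2% and 80.4% of them on day 21, against 74.2% and 64.0% in untreated mice. The ratio of the shared tag to Lyz2 was 10.2 and 4.91 on day 21 against 10.5 and 7.13 in untreated mice. On a log2 scale with 0.5 added to each count, this ratio was 2.83 ± 0.75 on day 21, against 3.11 ± 0.40 for untreated (mean ± SD, n = 2 each), a difference of -0.29 (two-sided exact permutation test, p = 0.667). With 2 libraries against 2 the smallest p that this test can give is 0.333. Without day 21 metastasis replicate 2 the difference was 0.24. With only tags that match 1 gene no such ratio could be formed, since the shared tag drops out.

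**Figure D2:**
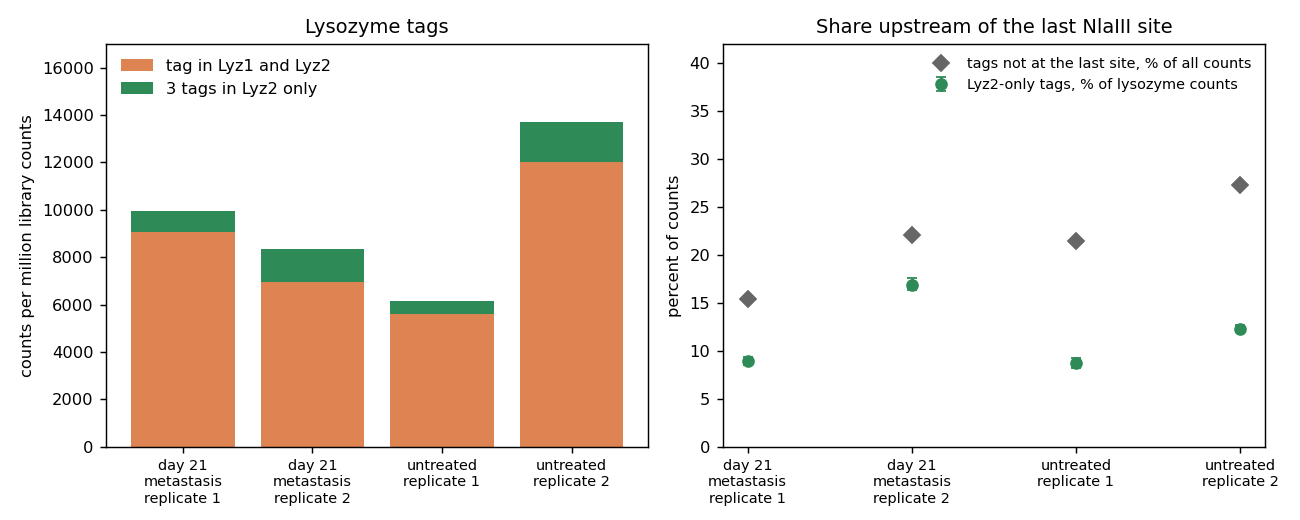
Left, the level, relative to library total, of the tag shared by Lyz1 and Lyz2 (orange) and of the 3 Lyz2-only tags (green) in each library. Right, the Lyz2-only share of lysozyme counts with its exact 95% interval (circles). Diamonds give the share of all counts in tags not found at the last site of the gene they are named for, which takes in tags without a match and the shared tag. The Lyz2-only share was highest, at 16.9%, in day 21 metastasis replicate 2.

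Camp, the cathelicidin gene, was the neutrophil granule transcript with by far the most counts. Ngp has no tag, and Lcn2 and Ltf were counted upstream of the last site of the main Lcn2 and full-length Ltf transcripts. The counts therefore do not rank these genes by amount. Camp had 121 and 352 counts on day 21 against 19 and 343 counts in untreated mice. In CPM this was 69.1 and 250.8 against 9.32 and 140.2. The groups overlapped, since untreated replicate 2 lay above day 21 metastasis replicate 1. Within the untreated group Camp was 15.0-fold higher in replicate 2 than in replicate 1 (counting interval 9.48 to 25.3), and within the day 21 group 3.63-fold higher in replicate 2 (2.95 to 4.50). The mean was 159.9 ± 128.5 CPM on day 21, against 74.8 ± 92.6 CPM for untreated (SD, n = 2 each), with a log2 change of 1.09 ± 0.82 (SE, edgeR adjusted p = 0.999). The value depended on single libraries: without untreated replicate 2 the log2 change was 4.12 (edgeR adjusted p = 0.00160), without untreated replicate 1 it was 0.19, without day 21 metastasis replicate 1 it was 1.81 and without its replicate 2 it was -0.086. Over 13 alternatives the adjusted p of Camp ranged between 0.00160 and 0.9999 (edgeR, and DESeq2 in 1).

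S100a9 and S100a8, which encode the chains of calprotectin, were counted at much lower levels, again with the highest CPM in day 21 metastasis replicate 2 and with 0 counts in untreated replicate 1. S100a9 had 9 and 27 counts on day 21, against 0 and 30 counts in untreated mice (5.14 and 19.2 CPM against 0 and 12.3 CPM). S100a8 had 0 and 5 counts on day 21, against 0 and 3 when untreated. A count of 0 allows up to 7.63 counts of S100a9, with 5 listed tags, and 4.74 counts of S100a8, with 1. That many, spread evenly over the listed tags, would leave each tag at 0 or 1 reads with a probability of 5%. S100a9 was not counted evenly: 1 tag held 7 of 9 and 19 of 27 counts on day 21, and 21 of 30 in untreated replicate 2. The log2 change of S100a9 was 0.94 ± 0.99 (SE, edgeR adjusted p = 0.999). It was -0.25 without day 21 metastasis replicate 2, -0.024 without untreated replicate 1 and 1.67 without day 21 metastasis replicate 1. Without untreated replicate 2 the untreated side has 0 counts, so the size of the change was not measured. The day 21 mean of S100a9, 12.2 CPM, was 3.26 times the limit of 3.74 CPM for untreated replicate 1. Of the day 21 libraries, replicate 1 alone was at 5.14 CPM.

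Lcn2 and Ltf were at the edge of detection. Lcn2 had 0 and 3 counts on day 21, against 0 and 3 when untreated. Ltf had 3 and 3 counts on day 21, against 0 and 5 counts in untreated mice. If reads spread evenly over the listed tags, a count of 0 allows 6.43 counts for the 3 tags of Lcn2 and 8.61 for the 7 of Ltf. All of these counts lie under those limits. Each gene was counted at 1 tag only, however. For 1 tag the limit is 4.74 counts, and the 5 Ltf counts of untreated replicate 2 lie above it. With so few counts a difference between groups could be neither shown nor excluded. S100a8, Lcn2 and Ltf were below the count filter of the test.

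The proportion of Camp to S100a9 had overlapping intervals in the 3 libraries where both were counted. Camp had 13.4 counts for each S100a9 count in day 21 metastasis replicate 1 (counting interval 6.85 to 30.1), 13.04 in its replicate 2 (8.81 to 20.1) and 11.4 in untreated replicate 2 (7.86 to 17.2). In untreated replicate 1, with 19 Camp counts and no S100a9, the ratio was only bounded, at 2.49 or more. Camp made up 91.0% and 90.3% of the summed neutrophil counts (Camp, S100a8, S100a9, Lcn2 and Ltf) on day 21, against 100% and 89.3% in untreated mice. These sums came to 133 and 390 counts on day 21, against 19 and 384 for untreated. They cannot include Ngp, which has no tag, so the share of Camp depends on which tags could be counted.

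Slpi, the protease inhibitor, was the 1 tested gene of the set with lower values in both day 21 libraries. It had 113 and 118 counts on day 21, against 211 and 1532 counts in untreated mice, or 64.5 and 84.1 CPM against 103.6 and 626.4 CPM. Both day 21 libraries lay below both untreated ones, which 16.0% of the 2993 tested genes also showed, and the untreated libraries differed 6.05-fold (counting interval 5.23 to 7.02). The mean was 74.3 ± 13.8 CPM on day 21, against 365.0 ± 369.7 CPM for untreated (SD, n = 2 each). The log2 change was -2.30 ± 0.72 (SE), with an unadjusted p of 0.00371 that did not hold after adjustment over all genes (edgeR adjusted p = 0.222). Without untreated replicate 2 the log2 change was -0.45 (edgeR unadjusted p = 0.527), and without untreated replicate 1 it was -3.07 (edgeR unadjusted p = 0.000720). Its adjusted p lay between 0.0924 and 0.9998 over 13 alternatives. A second, upstream tag of Slpi, at its start codon, held 6 and 4 counts on day 21, against 6 and 96 counts in untreated mice, so both tags were highest in untreated replicate 2, the highest library for 25.7% of tested genes.

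Hba-a1 and the 2 counted airway cell markers also had their most counts in untreated replicate 2, the library with the most Slpi. In CPM that library was the highest for 25.7% of tested genes. Hba-a1, a haemoglobin chain, was the only one of 6 red cell markers with counts (3 are listed, with Hba-a2 and Alas2 at 0 in all 4 libraries). It had 41 and 87 counts on day 21, against 67 and 365 counts in untreated mice. Of 10 airway secretory cell markers 5 are listed, with Pigr, Cyp2f2 and Wfdc2 at 0 in all 4 libraries. The 2 with counts were Scgb3a1 and Scgb1a1, with sums of 8 and 2 counts on day 21, against 5 and 20 in untreated mice. Scgb3a1 was at 6.13 CPM in untreated replicate 2 and at 4.57 CPM in day 21 metastasis replicate 1. Scgb1a1, the defining club cell secretoglobin, was at 0 in 3 libraries and had 5 counts in untreated replicate 2. The alveolar type II cell list summed to 7 and 15 counts on day 21, against 7 and 23 in untreated mice, from Abca3, Napsa and Lpcat1, but in CPM it was highest in day 21 metastasis replicate 2 (10.7 there against 9.40 in untreated replicate 2). The part of these cells in the Slpi counts was not tested.

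**Figure D3:**
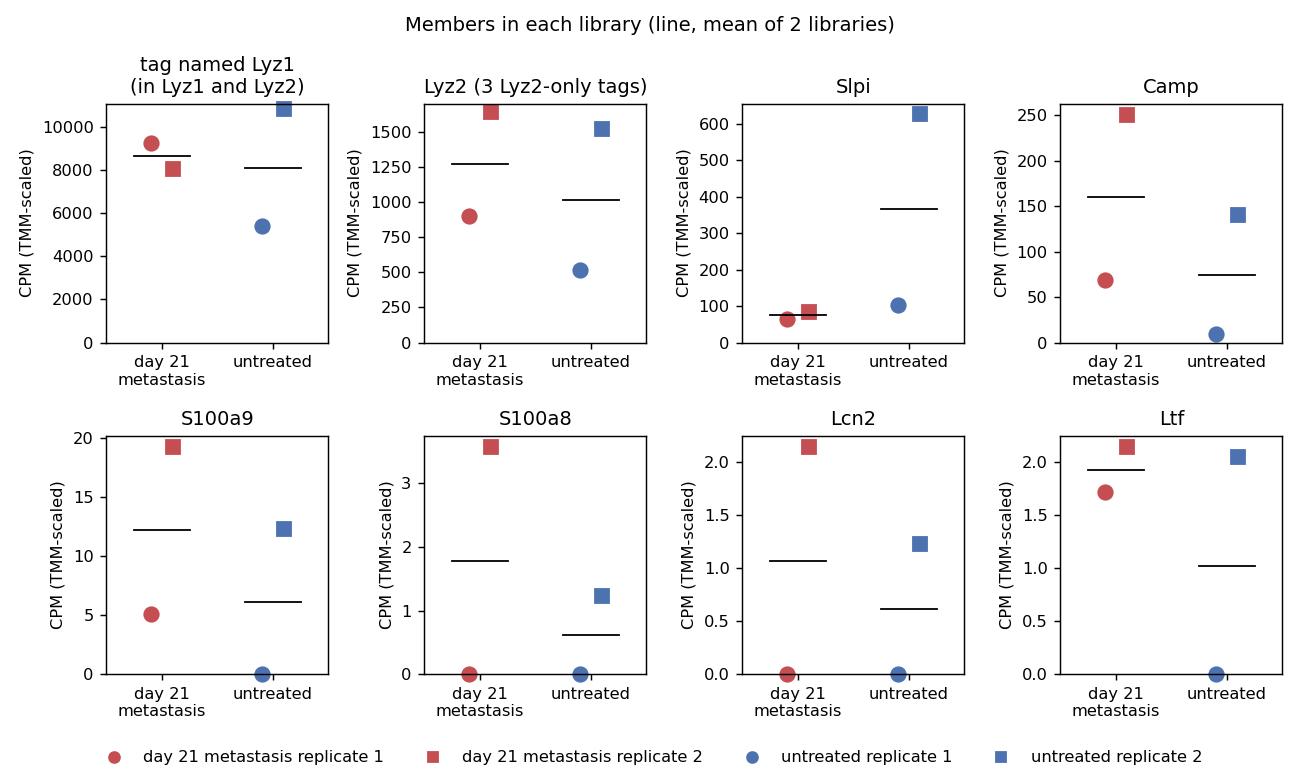
CPM of each gene with tags in the day 21 metastasis libraries (red) and the untreated libraries (blue), circles for replicate 1 and squares for replicate 2, with lines at the mean of 2 libraries. Untreated replicate 1 had the least of both lysozyme sums and of Camp, S100a9 and Ltf, and Slpi reached 626.4 CPM in untreated replicate 2.

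In all, 5 of the 9 genes had enough counts to be tested, and 0 of these 5 passed in edgeR's quasi-likelihood test at an adjusted p of 0.05, while 0.735% of the 2993 tested genes did (0.668% as higher and 0.0668% as lower). Slpi alone, 1 of the 5, had an unadjusted p under 0.05, against 5.68% of all tested genes, and DESeq2 passed 0 of the 5 after adjustment (Slpi at 0.206). Without untreated replicate 2, Camp and S100a9 passed, both higher on day 21, in a fit that called 63 genes higher and 18 lower in all, against 20 and 2 with all 4 libraries. The log2 changes of the 5 genes were positive except that of Slpi. Of all tested genes 45.5% had a positive change, and the median was -0.07. Tested tag by tag, 6 tags of the set had enough counts and 0 passed (edgeR quasi-likelihood test), against 0.358% of 3907 tags, with 1 of the 6 at an unadjusted p under 0.05 (Slpi, 0.0128) against 4.89% of all tags. Without untreated replicate 1 both Slpi tags passed as lower, among 21 tags higher and 9 lower in all, and without untreated replicate 2 the Camp tag passed as higher, among 71 higher and 25 lower. With all 4 libraries 14 tags were higher and 0 lower. The start codon tag of Lyz2 had a log2 change of 0.58 ± 0.60 and its exon 4 tag one of -0.32 ± 0.69, and the difference between these tags was not tested.

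**Figure D4:**
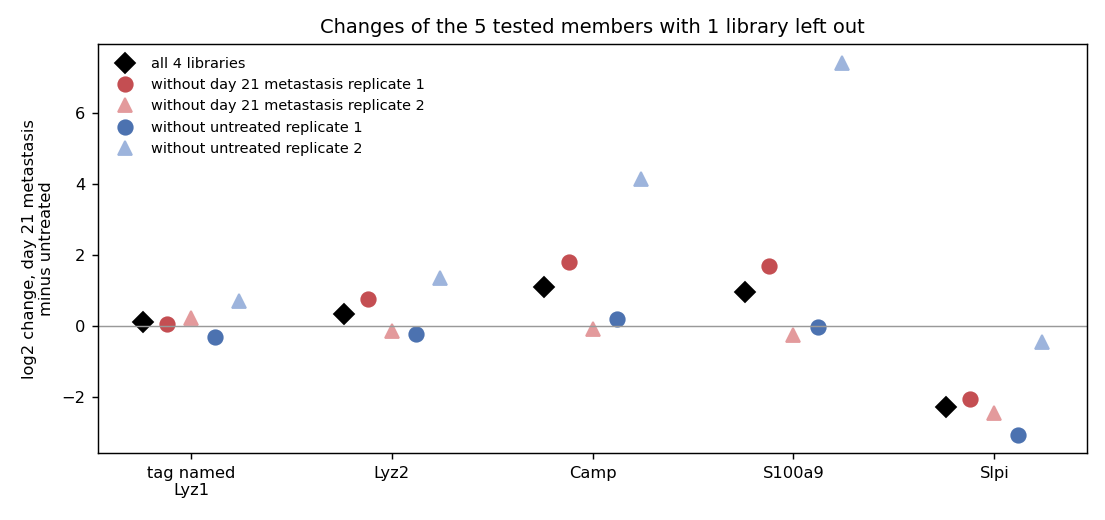
Log2 change of the 5 tested genes, day 21 metastasis minus untreated, with all 4 libraries (diamonds) and with each library left out. Without untreated replicate 2 the change of Camp was 4.12 and that of Slpi -0.45; the value of S100a9 without that library rests on 0 untreated counts and is no measured size.

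The private Lyz2 tags were then set against the neutrophil transcripts within each library, a ratio that does not depend on library size. These tags held 8.68% to 16.9% of the lysozyme counts, so the ratio also depends on how counts fell over the sites. Neutrophils make Lyz2 too, so the numerator is not specific to macrophages. For each count of the summed neutrophil genes there were 11.9 and 5.91 Lyz2 counts on day 21, against 55.0 and 9.66 in untreated mice. Untreated replicate 1 stood far above the other libraries, and the groups overlapped. The log2 ratio was 3.06 ± 0.71 on day 21, against 4.51 ± 1.75 for untreated (mean ± SD, n = 2 each), a difference of -1.44 (two-sided exact permutation test, p = 0.667, with 0.333 the smallest possible). Without untreated replicate 1 the difference was -0.21, and without untreated replicate 2 it was -2.68. With Slpi added to the neutrophil sum the direction turned, to a difference of 0.86 (exact permutation p = 0.333). With the shared lysozyme tag included there were 133.7 and 35.0 lysozyme counts per neutrophil count on day 21, against 633.5 and 78.5 in untreated mice.

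The ratio of Slpi to Camp, a pair chosen after its values were seen, is given as a description without a test. Slpi had 0.934 counts for each Camp count in day 21 metastasis replicate 1 (counting interval 0.716 to 1.22) and 0.335 in its replicate 2 (0.270 to 0.414). In untreated replicates 1 and 2 it had 11.1 (6.94 to 18.8) and 4.47 (3.97 to 5.04). These intervals cover counting error within a library, not the spread between libraries. Both day 21 values were the lower ones. Of single tested genes 16.0% had this order of the groups' libraries and 15.2% the opposite. The share among ratios of 2 genes was not computed, so these shares do not say how rare such a ratio is.

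**Figure D5:**
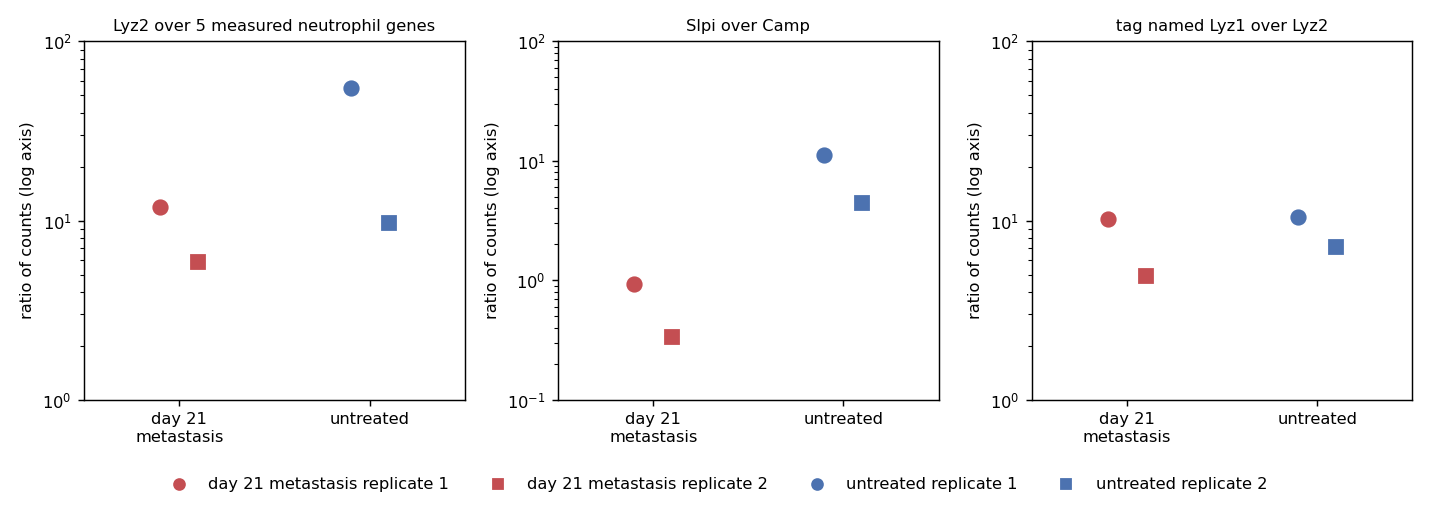
Ratios of counts in each library on log axes, day 21 metastasis in red and untreated in blue, circles for replicate 1 and squares for replicate 2. The Lyz2 to neutrophil ratio was 55.0 in untreated replicate 1 and 5.91 to 11.9 elsewhere; Slpi over Camp was drawn because of its values, 0.934 and 0.335 on day 21 against 11.1 and 4.47 in untreated mice, and is not tested.

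Other neutrophil genes were few. Of a list of 30, 22 have tags and 7 had counts, while 15 are listed at 0 in all 4 libraries, among them Mpo (myeloperoxidase), Mmp9 (gelatinase B) and Cxcr2 (the chemokine receptor of neutrophils). The list summed to 64 and 46 counts on day 21, against 66 and 64 counts in untreated mice, most of it G0s2, a lipolysis inhibitor that is not specific to neutrophils, with 50 and 34 counts against 43 and 39. Elane, the neutrophil elastase that Slpi inhibits, had 0 and 6 counts on day 21, against 0 and 7 in untreated mice, in the same libraries as S100a8 and Lcn2. Wfdc21, a small secreted protein, had 6 and 4 against 9 and 4 counts, and Trem1, an activating receptor of neutrophils and monocytes, 4 and 0 against 11 and 8. Only G0s2 could be tested (log2 change 0.51 ± 0.71, edgeR adjusted p = 0.999, DESeq2 0 calls).

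Monocytes also make calprotectin, and their markers gave 66 and 80 counts on day 21, against 16 and 52 in untreated mice. Ly6c2, a surface antigen of inflammatory monocytes, gave 46 and 57 of these counts against 4 and 39, whereas in untreated replicate 1 Cd14, a coreceptor for lipopolysaccharide, gave 12 of the 16. The log2 change of Ly6c2 was 1.87 ± 0.82 (SE, edgeR adjusted p = 0.740, unadjusted p = 0.0309). For Ly6c2 both day 21 libraries lay above both untreated ones, as for 15.2% of tested genes. Ccr2, the chemokine receptor of these cells, had 2 and 2 counts against 0 and 0, while Plac8, F13a1, Ms4a4c and Vcan are listed at 0 in all 4 libraries. Cd14, Fn1 and Ly6c1 summed to the rest, with 18 and 21 counts on day 21, against 12 and 13 in untreated mice. The part of monocytes or neutrophils in the calprotectin and Camp counts was not tested.

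The genes with which macrophages kill microbes were better covered. Of a list of 15, 8 had counts and 7 were tested, of which 0 passed in edgeR's quasi-likelihood test, 0 at an unadjusted p under 0.05 and 0 with DESeq2, with a median log2 change of -0.16. Cyba, the small membrane subunit of the NADPH oxidase, had 1052 and 2513 CPM on day 21, against 467.2 and 1679 CPM in untreated mice, lowest in untreated replicate 1 as Lyz2 was. Mpeg1, the pore-forming perforin-2, had 251.1 and 405.4 CPM against 93.7 and 211.8 CPM, with a log2 change of 1.10 ± 0.62 (edgeR adjusted p = 0.986). Lgals3, the galectin that binds bacterial glycans, had 313.9 and 409.7 CPM against 232.6 and 584.3 CPM.

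Receptors and partners of these proteins were tested likewise, and 0 of 5 passed in edgeR's quasi-likelihood test (0 at an unadjusted p under 0.05 and 0 with DESeq2), with a median log2 change of -0.40. Fpr1, a formyl peptide receptor, had 89.0 and 145.4 CPM on day 21, against 101.6 and 285.4 CPM in untreated mice. Fpr2, through which cathelicidin peptides attract leukocytes, had 3 and 5 counts against 5 and 11. Slc22a17, a receptor for Lcn2, had 79.9 and 87.6 CPM against 123.2 and 97.7 CPM. Lrp1, an endocytic receptor that takes up Ltf, had 19.4 and 20.0 CPM against 48.1 and 34.3 CPM, and Tlr2, a receptor for bacterial lipoproteins, 18.8 and 56.3 CPM against 15.2 and 46.2 CPM.

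Inducers and regulators of these genes gave 0 calls among 5 tested in edgeR's quasi-likelihood test (0 at an unadjusted p under 0.05 and 0 with DESeq2), with a median log2 change of -0.21. Spi1, the transcription factor PU.1, had 98.2 and 104.0 CPM on day 21, against 115.3 and 165.6 CPM in untreated mice. Il17ra, the receptor for interleukin 17, a cytokine that induces Lcn2 in epithelium, had 21.1 and 92.6 CPM against 6.38 and 71.2 CPM, again with replicate 2 above replicate 1 in each group. Cebpd, a C/EBP factor, had 40.0 and 31.4 CPM against 37.3 and 43.8 CPM.

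The genes whose pattern over the 4 libraries lay nearest to Lyz2 were sought among 2831 tested genes by the root mean square difference of centred log2 CPM. They were Atp5a1, a subunit of ATP synthase (0.0378), Spen, a nuclear RNA-binding repressor (0.0542), Camk1, a calcium-dependent kinase (0.0547), Slc25a5, an ADP and ATP carrier of mitochondria (0.0601), and Alg3, a mannosyltransferase (0.0625). The median gene was at 0.817, the shared lysozyme tag at 0.447 and Camp at 1.08. Atp5a1 had 45.1 and 79.8 CPM on day 21 against 23.6 and 76.1 CPM in untreated mice. Nearest to the summed neutrophil genes were Glul, glutamine synthetase (0.152), Rab8b, a small GTPase of vesicle traffic (0.265), Jak1, a cytokine receptor kinase (0.292), Slc39a6, a zinc transporter (0.344), and Cd33, a sialic acid-binding receptor (0.365), where the median gene was at 1.86. Glul, Jak1 and Slc39a6 had 0 counts in untreated replicate 1, so their distances and ranks depend on the prior count added before the log. Cd33 had 185.5 and 401.9 CPM on day 21 against 14.7 and 193.0 CPM in untreated mice. With 4 libraries such nearness describes these samples only.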

How the data were processed

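The authors deposited raw counts for tags of 21 bases, each with a symbol and an accession, per the file headers; cDNA had been cut with NlaIII and tags released with EcoP15I, per the labels' protocols. The submitters' processing notes name mm9; how tags were matched and filtered is not given in the sources used here. Library totals ran between 1630776 and 2198563.

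Tags were named through RefSeq accessions (29346), symbols (429), older symbols (115) or as deposited (737) and summed by gene. Sites and coordinates come from a search after CATG in GENCODE M21 transcripts (GRCm38). edgeR 4.0.16 in R 4.3.3 gave the quasi-likelihood test: TMM scaling, filterByExpr with minimum count 10 and minimum total 15, and Benjamini-Hochberg adjustment across 2993 genes or 3907 tags. Its coefficient of biological variation was 0.482, and SE was derived from the F statistic. It was run on simulated data as a check of the script. DESeq2 1.42.0, other scalings and filters, a replicate block and single libraries left out were alternatives. Libraries within a group exceeded counting noise (chi-square over degrees of freedom 44.1 on day 21, 59.4 untreated).

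The members and lists were chosen with earlier results of these data known. All 9 members and their counted sites are described, with up to 4 genes of highest mean CPM and any called gene of each list; Ccr2, Fpr2, Mpo, Mmp9, Cxcr2 and markers at 0 were named after their values were seen. Not every gene that this rule takes is reported here.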

Additional observations from a re-analysis of the deposited data

How the results depend on the processing

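Over 13 alternatives, 0 of the tested genes of the set passed except without untreated replicate 2, where 2 did. Leaving out 1 library gave 0 to 63 genes higher and 0 to 18 lower over all genes, 0 to 2 of the set, 16 to 71 tags higher and 1 to 25 lower, and 0 to 2 tags of the set. The difference of the log2 ratio of Lyz2 to neutrophil transcripts ran from -2.68 to -0.21, and that of the shared tag to Lyz2 from -0.82 to 0.24. Adding Slpi to the neutrophil sum turned the first to 0.86 (exact permutation p = 0.333), since Slpi then outweighs Camp in untreated libraries. Gene counts higher and lower were 9 and 0 with library totals, 9 and 0 with the most counted tag only, 36 and 5 without a filter, 21 and 4 with DESeq2 and 20 and 0 with upper-quartile scaling; tags without a filter gave 30 and 4. With library totals the shared tag was at -0.14. With 1 library left out, log2 changes ran from -0.31 to 0.71 for the shared tag, -0.25 to 1.34 for Lyz2, -0.086 to 4.12 for Camp, -0.25 to 7.41 for S100a9 (-0.024 without untreated replicate 1, the upper value against 0 untreated counts), -3.07 to -0.45 for Slpi and -0.31 to 0.77 for both lysozyme names as 1 gene, an alternative chosen after the data were seen. A lone library was assumed to vary like the other group. The cause of these shifts was not tested.

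The replicate numbers of the titles do not establish pairs: the differences between replicates 1 and 2 correlated at 0.54 between the groups over 2993 genes, which are not independent, with 2 numbers only. With a replicate block, 31 genes were higher and 9 lower, 0 of them in the set, and 110 tags were higher and 46 lower, including 2 of the set, the Camp tag (log2 change 1.74, edgeR adjusted p = 0.0490) and the main Slpi tag (-1.82, adjusted p = 0.0346). Without untreated replicate 1, where 21 tags were higher and 9 lower in all, both Slpi tags passed as lower (edgeR adjusted p = 0.0126 and 0.00944). Without untreated replicate 2, with 71 higher and 25 lower, the Camp tag passed as higher (edgeR adjusted p = 0.00550). S100a8, Lcn2 and Ltf had 5 counts or fewer in every library. Whether depth or the sites that could be read limited them was not tested.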

Other observations

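Cebpb, a transcription factor of macrophages and of granule genes, differed more between libraries of 1 group than either lysozyme sum did. It had 3892 and 327.1 CPM on day 21, against 6011 and 1440 CPM in untreated mice. Replicate 2 stood at 0.0840 of replicate 1 on day 21 (counting interval 0.0763 to 0.0924) and at 0.240 in untreated mice (0.231 to 0.249), the opposite order to Camp, S100a9 and Lyz2, which were higher in replicate 2 of each group. Chil3, the chitinase-like protein of alveolar macrophages, followed the order of the private Lyz2 tags. It had 1047 and 2777 CPM on day 21, against 329.3 and 1194 CPM in untreated mice. Krt79, a keratin of alveolar macrophages, had 90.8 and 20.7 CPM on day 21, against 328.8 and 210.2 CPM in untreated mice, a log2 change of -2.27 ± 0.70 (SE, edgeR unadjusted p = 0.00333, adjusted p = 0.204), close in size to that of Slpi. Of the 14 alveolar macrophage markers, 12 were tested, with 0 calls (edgeR quasi-likelihood test and DESeq2), and a median log2 change of -0.32. At an unadjusted p under 0.05 there were 4, against 5.68% of all tested genes, and they went both ways. Chil3 (log2 change 1.33, edgeR adjusted p = 0.823) and Fabp5 (1.67, adjusted p = 0.785) had positive changes, and Plet1 (-1.43, adjusted p = 0.768) and Krt79 negative ones.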
